A study of Mus musculus with 8 samples.

Results

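The 9 genes described here encode transcription factors that set up or keep the identity of pancreatic acinar cells, the cells that make and secrete digestive enzymes: Ptf1a, Rbpjl, Bhlha15, Nr5a2, Gata4, Gata6, Xbp1, Foxa2 and Prox1. They were taken from the table of counts by gene name, as factors known for this role, and the rule itself uses no measured value. All 9 of 9 were found among the 21434 genes of the table, and all 9 were among the 12820 genes that passed the filter on low counts and were tested.

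RNA-seq was performed on homogenized pancreatic tissue of 8 mice at 18 weeks of age, which had received no treatment and were fed control chow. The 4 Bach2KO mice were homozygous for the Bach2tm1b allele of the strain C57BL/6N-Bach2tm1b(EUCOMM)Wtsi/leg, a Cre-excised and therefore constitutive allele that lacks Bach2 in every cell of the body. The 4 Bach2WT mice were wild type animals of the same strain. In both groups mice 1 and 2 were female and mice 3 and 4 were male, and each library came from 1 mouse. Bach2 encodes a transcription repressor of lymphocytes, and the study used its loss as a model of autoimmune pancreatitis, so the genotype comparison asks whether the acinar transcription factor genes differed in a pancreas without Bach2. Since the tissue is a mixture of cells, fewer cells of a type and less RNA per cell cannot be told apart.

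As background, Ptf1a binds DNA in the trimeric PTF1 complex together with a common bHLH partner (the products of Tcf3, Tcf12 or Tcf4) and a CSL protein. In the embryonic pancreas that CSL protein is Rbpj, which also serves Notch signaling, and in mature acinar cells it is Rbpjl, whose gene is itself a target of the complex. The complex and the orphan nuclear receptor Nr5a2 drive the digestive enzyme genes, Bhlha15 (Mist1) sets up the apical secretory machinery, and Xbp1 expands the endoplasmic reticulum through the unfolded protein response. Gata4 and Gata6 act together in pancreas formation, Foxa2 opens chromatin in endodermal tissues, and Prox1 is a homeodomain protein of pancreatic progenitors that is low in mature acinar cells and high in lymphatic endothelium.

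The PTF1 complex reads an E-box and a TC-box that lie near each other, so the promoters of the genes with the clearest acinar role are shown: those of Ptf1a and Rbpjl, which encode its subunits, and those of Bhlha15 and Xbp1, the highest of the 9 genes. The sequences are the 250 bases before the annotated start in RefSeq, on build GRCm38.p6 (the gene positions given further on are on GRCm39). Capitals mark each E-box (CANNTG, which includes the PTF1-type form CACCTG) and each core of the RBPJ motif (TGGGAA), both searched on both strands.
Ptf1a (chr2:19445413-19445662, strand +): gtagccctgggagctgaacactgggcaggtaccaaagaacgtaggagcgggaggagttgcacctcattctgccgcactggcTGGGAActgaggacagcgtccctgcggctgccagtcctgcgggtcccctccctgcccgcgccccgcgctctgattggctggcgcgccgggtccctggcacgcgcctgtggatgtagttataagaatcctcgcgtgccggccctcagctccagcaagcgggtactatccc
Rbpjl (chr2:164402944-164403193, strand +): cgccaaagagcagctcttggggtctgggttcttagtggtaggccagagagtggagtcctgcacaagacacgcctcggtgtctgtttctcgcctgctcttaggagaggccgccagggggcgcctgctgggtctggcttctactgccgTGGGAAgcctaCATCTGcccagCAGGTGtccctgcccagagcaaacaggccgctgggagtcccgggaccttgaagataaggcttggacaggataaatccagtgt
Bhlha15 (chr5:144190036-144190285, strand +): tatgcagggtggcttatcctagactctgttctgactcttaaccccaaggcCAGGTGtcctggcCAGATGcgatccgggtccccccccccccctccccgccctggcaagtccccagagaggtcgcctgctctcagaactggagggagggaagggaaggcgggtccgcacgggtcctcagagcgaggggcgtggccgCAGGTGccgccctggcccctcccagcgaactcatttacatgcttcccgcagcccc
Xbp1 (chr11:5520391-5520640, strand +): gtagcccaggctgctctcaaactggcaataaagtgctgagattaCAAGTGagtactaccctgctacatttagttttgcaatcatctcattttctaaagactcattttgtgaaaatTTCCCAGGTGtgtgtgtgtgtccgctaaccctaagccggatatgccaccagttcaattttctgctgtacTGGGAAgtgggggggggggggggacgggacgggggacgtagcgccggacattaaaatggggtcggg

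In the Rbpjl window the RBPJ core began 104 bases before the start, and it was followed by E-boxes at 93 and 82 bases, of which the one at 82 had the PTF1-type form. The Bhlha15 window held E-boxes at 200, 187 and 55 bases, with the PTF1-type form at 200 and 55 and no RBPJ core. In the Ptf1a window an RBPJ core at 169 bases was found and no E-box. The Xbp1 window held RBPJ cores at 135 and 66 bases and E-boxes at 206 and 131 bases, so the core at 135 shared bases with the PTF1-type E-box at 131. Among 32851 windows of this length over all genes, 66.2% held at least 1 CANNTG, 17.2% at least 1 CACCTG and 21.6% at least 1 TGGGAA, and 2.06% held 2 or more CACCTG as the Bhlha15 window did. The TC-box in the spelling TTTCCC, which shares bases with TGGGAA read on the other strand, was in 21.9% of all windows and, among the 9 genes, in those of Xbp1 and Prox1. Of the 9 genes, 7 had a window in the table. Gata4 and Gata6 are named only. A match describes letters in the window and does not show binding.

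The libraries held 72299745 to 172029360 counts on genes, and 26 digestive enzyme genes took 79.5% to 82.4% of them. All 12 markers of acinar cells were detected in every library. Bach2 itself had 3 to 16 counts in the Bach2KO and 4 to 31 in the Bach2WT libraries, which is too low to check the genotype labels. The library of Bach2KO mouse 3 stood apart on the first principal component, with a score of 101.8 against -34.8 to 7.22 for the other libraries. Counts over 20 were even in 52.8% to 56.1% of cases, and if both mates of some read pairs were counted the counts overstate the number of fragments.

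Levels of different genes were compared per length, as deposited FPKM. Xbp1 was the highest of the 9 genes with a mean of 43.2 FPKM ± 6.44 (SD, n = 8), a range of 30.7 to 50.6 and the first rank in every library among 1164 genes that the table assigns to a transcription factor family. Bhlha15 followed with 16.1 ± 3.88 FPKM (the third of 1164) and Rbpjl with 10.4 ± 2.74 FPKM (the eighth). These 3 genes together belong to the 10 transcription factor genes with the highest mean FPKM, alongside the stress factors Atf5 (23.0 FPKM) and Atf4 (12.3 FPKM). Xbp1 alone made up 10.4% of all FPKM assigned to transcription factor genes, Bhlha15 3.88% and Rbpjl 2.51%.

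The remaining 6 genes were lower. Gata4 had a mean of 3.36 FPKM (rank 16), Ptf1a 2.09 FPKM (rank 28) and Foxa2 1.48 FPKM (rank 53), and Nr5a2 had 0.563 FPKM (rank 125), Gata6 0.226 FPKM (rank 270) and Prox1 0.0433 FPKM (rank 634). The order was set by mean FPKM over the same 8 libraries, so the pairs and their direction were chosen from the values tested. Neighbours in the order differed in all 8 pairs by a two-sided exact sign-flip permutation test over the 8 libraries, with an adjusted p of 0.00893 in 7 pairs (exact p = 0.00781, the smallest the test can give) and 0.03125 for Ptf1a over Foxa2, whose order held in 7 of 8 libraries. The smallest step was that pair, 1.36-fold, and the largest was Gata6 over Prox1, 5.42-fold. Within their families Bhlha15 was the first and Ptf1a the third of 77 bHLH genes, Gata4 was first of 13 zf-GATA genes, Xbp1 first of 50 bZIP genes and Foxa2 second of 27 forkhead genes, between Foxp4 (1.78 FPKM) and Foxa3 (1.33 FPKM). FPKM rests on the annotated length of each gene, and transcripts that use only part of it would be understated.

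**Figure D1:**
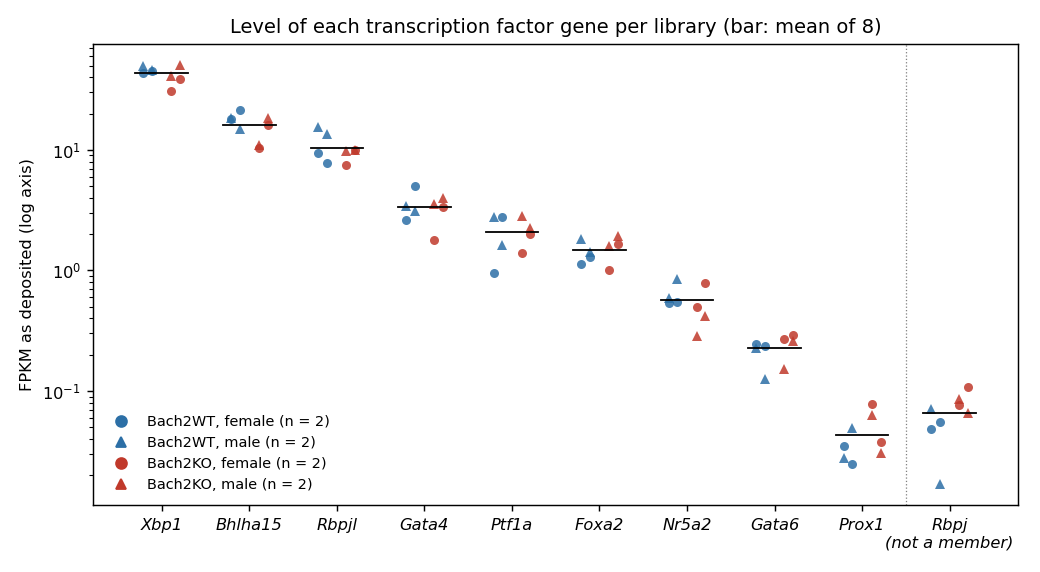
FPKM of the 9 genes and of Rbpj in each of the 8 libraries, on a log axis, with Bach2WT in blue, Bach2KO in red, females as circles, males as triangles and the mean of 8 as a bar. Xbp1 lies between 30.7 and 50.6 and Prox1 between 0.0250 and 0.0775, while the points of both genotypes overlap for every gene.

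None of the 9 genes passed the test between Bach2KO and Bach2WT mice. By edgeR's quasi-likelihood test with Benjamini-Hochberg adjustment over all genes tested, 0 of 9 passed an adjusted p of 0.05 (background 0.0078%, 1 of 12820 genes) and 0 of 9 had an unadjusted p under 0.05 (background 7.46%). DESeq2 also called 0 of 9 by either measure. In CPM the genotypes overlapped for all 9 genes, against 4.49% of all genes whose genotypes did not overlap. The log2 fold change of Bach2KO against Bach2WT was above 0 for 4 genes and below 0 for 5, with a median of -0.14 beside 0.05 over all genes tested. Of all genes tested 54.7% lay above 0. That share was 73.7% with library sizes that leave out the digestive enzymes and 43.6% with a correction for gene length. Over all genes, 3.9% were higher and 3.56% lower in Bach2KO mice at an unadjusted p under 0.05, and among 780 transcription factor genes tested the split was 40 higher and 7 lower, with 0 past the adjusted threshold. These shares depend on the scaling: the split over all genes was 500 higher and 457 lower as tested, 939 and 108 with library sizes that leave out the digestive enzymes, which moved the median of all genes to 0.24, and 327 and 752 with a correction for gene length, which moved it to -0.06. Relative to the median of all genes, the median of the 9 genes lay at -0.19, -0.17 and -0.22 in these 3 fits, but at 0.04 without Bach2KO mouse 1 and 0.03 without Bach2WT mouse 2.

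**Figure D2:**
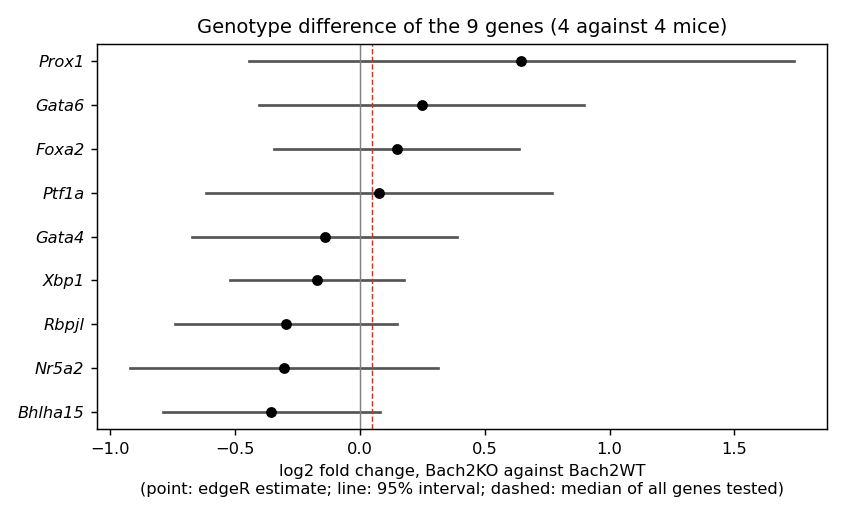
Log2 fold change of Bach2KO against Bach2WT (horizontal axis) for each of the 9 genes, as the edgeR estimate with its 95% interval over 4 against 4 mice and a dashed line at the median of all genes tested, 0.05. Every interval includes 0, from Bhlha15 at -0.36 to Prox1 at 0.65.

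Ptf1a, the bHLH subunit that gives the PTF1 complex its specificity (ENSMUSG00000026735, chr2:19450474-19452312), had 2.23, 3.14, 4.35 and 3.49 CPM in Bach2KO mice 1 to 4 and 1.47, 4.27, 4.25 and 2.48 CPM in Bach2WT mice 1 to 4. The lowest library was Bach2WT mouse 1, and Bach2KO mouse 3 and Bach2WT mice 2 and 3 were the highest, so the wild type mice spanned the whole range but for its top. The group means were 3.30 ± 0.876 and 3.12 ± 1.39 CPM (SD, n = 4 each). On the log2 scale the difference was 0.08 with an SE of 0.32 and a 95% interval of -0.62 to 0.77 (edgeR, adjusted p = 0.980), and its sign turned in 3 of the fits that left out 1 library. The highest library exceeded the lowest by 2.97-fold for Ptf1a, beside 1.98-fold for its partner gene Rbpjl.

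Rbpjl, the acinar CSL subunit of the complex (ENSMUSG00000017007, chr2:164245061-164257368), had 45.4, 58.6, 56.9 and 58.1 CPM in Bach2KO mice 1 to 4 and 55.5, 45.5, 89.9 and 78.0 CPM in Bach2WT mice 1 to 4. Both wild type males lay above all other libraries, and the 2 lowest values came from 1 female of each genotype. Means were 54.7 ± 6.26 CPM in Bach2KO and 67.2 ± 20.3 CPM in Bach2WT mice, a log2 fold change of -0.30 ± 0.21 (SE, edgeR, adjusted p = 0.801). Rbpjl overlaps Matn4 on the opposite strand, which had 418 to 1044 counts against 4307 to 12907 for Rbpjl, and whether the libraries and the counting kept strand is not settled by the protocol, which describes a directional and a non-directional kit.

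Rbpj, the ubiquitous CSL protein and no member of the set, had 1.04, 1.42, 1.11 and 0.850 CPM in Bach2KO mice 1 to 4 and 0.633, 0.716, 0.912 and 0.216 CPM in Bach2WT mice 1 to 4. The lowest value, in Bach2WT mouse 4, rested on 15 counts, and Bach2KO mouse 4 lay below Bach2WT mouse 3. The log2 fold change was 0.82 ± 0.41 (SE, edgeR, unadjusted p = 0.0645, adjusted p = 0.695). Per kilobase, Rbpjl exceeded Rbpj by 91.5- to 804-fold within a library. The ratio of Rbpjl to Rbpj was lower in Bach2KO mice, with geometric means of 111 against 264. On the log2 scale these were 6.80 ± 0.33 and 8.04 ± 1.10 (SD, n = 4 each), a difference of -1.24 that did not pass a two-sided exact permutation test (p = 0.0571, adjusted p over 4 ratios = 0.229, smallest possible p 0.0286). Without Bach2WT mouse 4 the difference was -0.71.

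The other genes around the PTF1 complex were its bHLH partners Tcf3, Tcf12 and Tcf4 and the Id genes, whose products bind those partners and keep them off DNA. Of these 8 genes with Rbpj included, 7 were tested, and 0 had an unadjusted p under 0.05 (edgeR and background as above). The log2 fold change was above 0 for 6 of them and below 0 for 1, where 54.7% of all genes lay above 0. Their median was 0.48 beside 0.05 over all genes. Tcf3 had a log2 fold change of 0.32 ± 0.23 (SE, adjusted p = 0.818) and Tcf12 of 0.68 ± 0.38 (SE, adjusted p = 0.754), both in edgeR.

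Bhlha15, which keeps acinar cells polarized and filled with granules (ENSMUSG00000052271, chr5:144127104-144131259), had 38.0, 58.2, 39.1 and 66.1 CPM in Bach2KO mice 1 to 4 and 64.3, 76.6, 64.7 and 52.1 CPM in Bach2WT mice 1 to 4. Bach2KO mice 1 and 3 were below every wild type library, whereas Bach2KO mice 2 and 4 lay within the wild type range. Means were 50.4 ± 14.0 and 64.4 ± 10.0 CPM, and the log2 fold change was -0.36 ± 0.20 (SE) with a 95% interval of -0.79 to 0.08 (edgeR, unadjusted p = 0.101, adjusted p = 0.756). It was the smallest unadjusted p of the set, and the adjusted p over 16 alternatives did not go below 0.544.

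Xbp1, whose spliced product drives the genes of the endoplasmic reticulum (ENSMUSG00000020484, chr11:5470659-5475893), had 105, 130.3, 135 and 168 CPM in Bach2KO mice 1 to 4 and 144, 150.0, 163 and 149 CPM in Bach2WT mice 1 to 4. The knockout mice enclosed the wild type range, with both the lowest and the highest library. Means were 135 ± 25.9 and 152 ± 8.32 CPM. The log2 fold change was -0.17 ± 0.16 (SE, edgeR, adjusted p = 0.882), and its 95% interval corresponded to a fold of 0.698 to 1.13, the narrowest of the 9 genes. With library sizes that leave out the digestive enzymes the value turned to 0.02, which is below the median of all genes in that fit. Gene counts do not separate spliced from unspliced Xbp1 transcripts.

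Nr5a2, the nuclear receptor that works with the PTF1 complex on enzyme genes (ENSMUSG00000026398, chr1:136770309-136888186), had 3.11, 4.77, 1.72 and 2.55 CPM in Bach2KO mice 1 to 4 and 3.22, 3.26, 3.52 and 5.02 CPM in Bach2WT mice 1 to 4. Bach2KO mouse 2 and Bach2WT mouse 4 were high, and both knockout males were below all other libraries. Means were 3.04 ± 1.29 and 3.76 ± 0.856 CPM, with a log2 fold change of -0.30 ± 0.29 (SE, edgeR, adjusted p = 0.881). Leaving out Bach2KO mouse 2 moved it to -0.60 and leaving out Bach2WT mouse 4 to -0.14, both short of the adjusted threshold.

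Gata4, which stays on in mature acinar cells (ENSMUSG00000021944, chr14:63436371-63509141), had 7.40, 13.6, 14.0 and 15.9 CPM in Bach2KO mice 1 to 4 and 10.6, 19.7, 13.6 and 12.2 CPM in Bach2WT mice 1 to 4. Bach2KO mouse 1 was the lowest and Bach2WT mouse 2 the highest, and the other 6 libraries lay between 10.6 and 15.9 CPM. Means were 12.7 ± 3.70 and 14.0 ± 4.0 CPM. The log2 fold change of -0.14 ± 0.25 (SE, edgeR, adjusted p = 0.946) turned to 0.05 without Bach2KO mouse 1 and 0.07 without Bach2WT mouse 2. With library sizes that leave out the digestive enzymes it was 0.07, which is below the median of all genes in that fit, 0.24.

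Gata6, its paralog (ENSMUSG00000005836, chr18:11052064-11085635), had 1.87, 1.97, 1.00 and 1.71 CPM in Bach2KO mice 1 to 4 and 1.64, 1.57, 1.48 and 0.821 CPM in Bach2WT mice 1 to 4. The highest 3 values were from knockout mice and the lowest from a wild type male. Means were 1.64 ± 0.435 and 1.38 ± 0.378 CPM, with a log2 fold change of 0.25 ± 0.30 (SE, edgeR, adjusted p = 0.925). The opposite-strand transcript Gata6os had 17 to 87 counts where Gata6 had 57 to 331. Per kilobase, Gata4 exceeded Gata6 by 6.61- to 24.9-fold in each library, and the log2 ratio of Gata6 to Gata4 was -3.69 ± 0.76 in Bach2KO and -4.09 ± 0.54 in Bach2WT mice (SD, n = 4 each, exact permutation p = 0.486, adjusted p = 0.486). Of 6 other GATA genes and GATA cofactors, only Zfpm1 (log2 fold change -0.20, edgeR adjusted p = 0.883) and Gata2 (0.77, adjusted p = 0.881) passed the filter on low counts. Zfpm1 encodes the FOG cofactor, and Gata2 belongs to the blood and mast cell lineages.

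Foxa2, a pioneer factor of the endoderm (ENSMUSG00000037025, chr2:147884797-147888889), had 2.53, 4.03, 3.82 and 4.64 CPM in Bach2KO mice 1 to 4 and 2.73, 3.09, 4.32 and 3.41 CPM in Bach2WT mice 1 to 4. Female mouse 1 was the lowest of each genotype, and the genotypes overlapped over most of the range. Means were 3.76 ± 0.887 and 3.39 ± 0.682 CPM, and the log2 fold change was 0.15 ± 0.23 (SE, edgeR, adjusted p = 0.938). Foxa1, its close relative, had 0 to 4 counts and was not tested.

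Prox1 (ENSMUSG00000010175, chr1:189850232-189902911) had 0.686, 0.326, 0.542 and 0.264 CPM in Bach2KO mice 1 to 4 and 0.2998, 0.213, 0.237 and 0.418 CPM in Bach2WT mice 1 to 4, from 27 to 111 counts. Bach2KO mice 1 and 3 and Bach2WT mouse 4 were the highest. Means were 0.454 ± 0.195 and 0.292 ± 0.0914 CPM, and the log2 fold change of 0.65 had the widest error of the set, an SE of 0.51 and a 95% interval of -0.45 to 1.74 (edgeR, adjusted p = 0.837). The same 3 libraries had the highest sums over 12 islet markers, 656, 2043 and 2333 CPM against 187 to 522 CPM in the other 5 libraries, and islets also express Prox1. Bach2KO mouse 1 had 8.70 CPM over 6 markers of lymphatic endothelium against 1.54 to 4.04 CPM in the other 7 libraries. Of these 6 markers Ccl21a had the widest spread among Bach2KO mice (1.86 ± 1.85 CPM, SD, n = 4, from 73 to 750 counts). The sum therefore depends on Ccl21a more than on the other markers. The islet markers summed to 231 to 2043 CPM in Bach2KO and 187 to 2333 CPM in Bach2WT mice, with 1 of 12 (Isl1) at 0 in a library, and the lymphatic markers to 3.07 to 8.70 CPM in Bach2KO and 1.54 to 3.35 CPM in Bach2WT mice, with 2 of 6 (Reln and Mmrn1) at 0 in a library. Their part in the Prox1 values was not tested.

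The last 2 ratios set the factors of the acinar program against each other within a library. The log2 ratio of Ptf1a to Rbpjl per kilobase was -2.16 ± 0.28 in Bach2KO and -2.58 ± 0.81 in Bach2WT mice, and that of Bhlha15 to Ptf1a was 2.72 ± 0.51 and 3.27 ± 0.67 (SD, n = 4 each). Neither passed the test between the genotypes (exact permutation p = 0.343 and adjusted p = 0.457 for both). Rbpjl exceeded Ptf1a by 2.80- to 9.97-fold in single libraries, and its spread was wider among wild type than among knockout mice, a difference that was not tested.

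**Figure D3:**
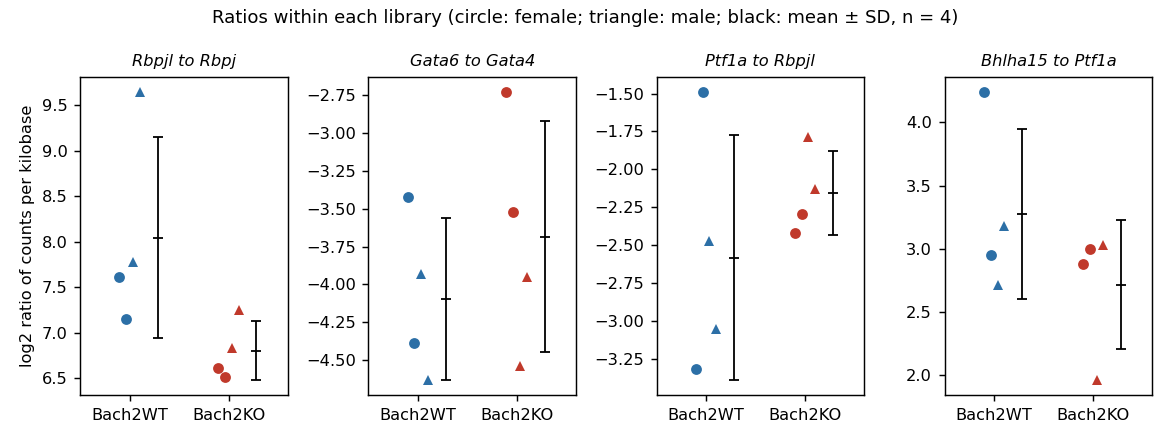
Log2 ratio of counts per kilobase between a pair of genes within each library (vertical axis), by genotype, with females as circles, males as triangles and the mean ± SD of 4 in black. For Rbpjl to Rbpj the knockout mice lie between 6.52 and 7.25 and the wild type mice between 7.14 and 9.65.

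The genes that these factors are known to drive were then examined. Of 26 digestive enzyme genes, 0 were higher and 10 were lower in Bach2KO mice at an unadjusted p under 0.05 (edgeR, backgrounds 3.9% and 3.56%), 7 did not overlap between the genotypes (background 4.49%), and 0 passed the adjusted threshold. Their median log2 fold change was -0.40 beside 0.05 over all genes, and -0.20 beside 0.24 with library sizes that leave these same genes out. Before scaling, the 26 genes took 79.5% to 81.3% of the counts in Bach2KO and 81.0% to 82.4% in Bach2WT libraries. The TMM scaling factors were 1.05 to 1.18 in Bach2KO and 0.826 to 1.10 in Bach2WT libraries. The lower and the non-overlapping enzyme genes were counted with these factors only, so their numbers depend on the scaling. The smallest unadjusted p-values belonged to Try10 (-1.31 ± 0.24, adjusted p = 0.266), Cela3a (-1.18 ± 0.22, adjusted p = 0.266), the chymotrypsin-like Ctrl (-0.66 ± 0.16, adjusted p = 0.352), Rnase1 (-0.70 ± 0.18, adjusted p = 0.371), the carboxypeptidase gene Cpa1 (-0.53 ± 0.15, adjusted p = 0.513) and Cela3b (-0.64 ± 0.19, adjusted p = 0.523), each as log2 fold change ± SE. Try10 is 1 of many trypsinogen copies and Cela3a and Cela3b are close paralogs, so the split of reads among them is uncertain.

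Of 6 genes known as Bhlha15 targets, 0 were higher and 2 were lower at an unadjusted p under 0.05 (edgeR, backgrounds 3.9% and 3.56%), and the median log2 fold change was -0.30. These were Rab26, a small GTPase of secretory granules, with 6.26 ± 0.894 CPM in Bach2KO and 10.3 ± 1.84 CPM in Bach2WT mice (-0.72 ± 0.18, edgeR adjusted p = 0.360, no overlap, background 4.49%), and Copz2, a coatomer subunit (-0.58 ± 0.18, adjusted p = 0.531). Of 27 Xbp1 targets, 1 was higher (Derl2, 0.42 ± 0.19, adjusted p = 0.663) and 3 were lower at an unadjusted p under 0.05, with a median of -0.03. The count of higher genes is near the background of 3.9%, and that of lower genes stands beside a background of 3.56%. The 3 were Edem2 (-0.36), Sec23b (-0.53) and Ssr4 (-0.42), which serve protein quality control, vesicle coats and translocation into the endoplasmic reticulum. Hspa5, the main chaperone of that compartment, had a log2 fold change of 0.14 ± 0.23 (adjusted p = 0.941).

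Among 18 other transcription factors of the pancreatic epithelium, 14 were tested and 0 had an unadjusted p under 0.05, with a median log2 fold change of -0.07. Hnf4a, a nuclear receptor of endodermal epithelia, had -0.52 ± 0.24 (SE, unadjusted p = 0.0534, adjusted p = 0.670), and Pdx1, the factor of early pancreas and beta cells, -0.47 ± 0.38 (adjusted p = 0.844), both in edgeR. Of 17 genes of acinar dedifferentiation and injury, 15 were tested, 4 were higher and 1 was lower at an unadjusted p under 0.05 (edgeR, backgrounds 3.9% and 3.56%), and 0 passed the adjusted threshold. The stress protein gene Nupr1 had 267 ± 39.1 CPM in Bach2KO and 131 ± 34.3 CPM in Bach2WT mice (1.03 ± 0.20, adjusted p = 0.266) and did not overlap between the genotypes (background 4.49%), nor did Klf4 (1.25 ± 0.36, adjusted p = 0.513) and the keratin gene Krt7 (0.57 ± 0.22, adjusted p = 0.627). Myc had 0.73 ± 0.32 (adjusted p = 0.656) and the secreted trefoil gene Tff2 -0.67 ± 0.21 (adjusted p = 0.531). The median of this list was 0.26 beside 0.05 over all genes.

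**Figure D4:**
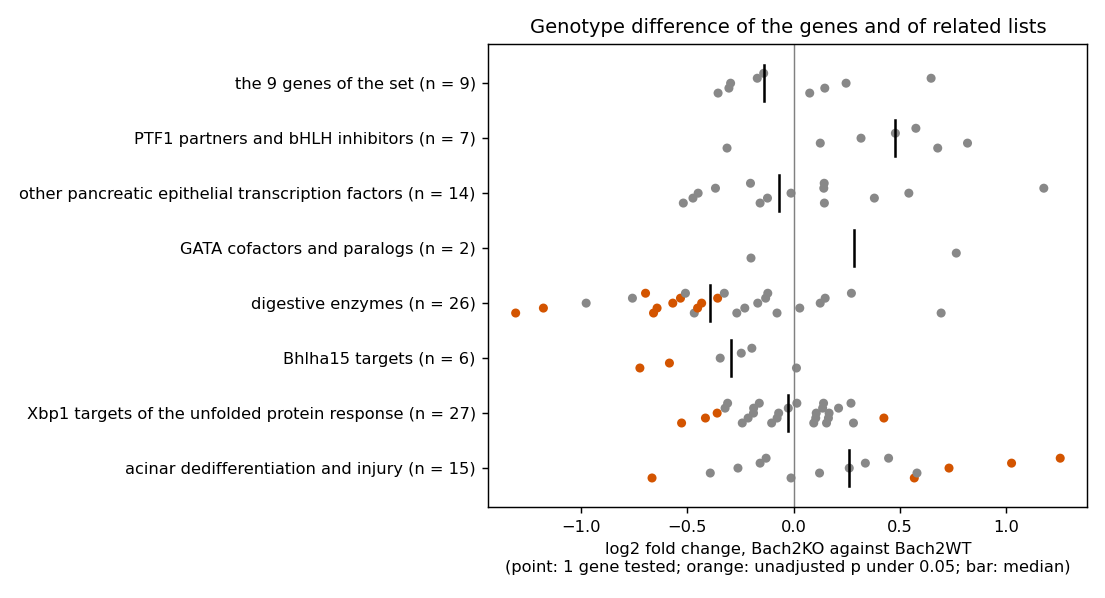
Log2 fold change of Bach2KO against Bach2WT (horizontal axis) for each tested gene of the 9 factors and of 7 related lists, with genes at an unadjusted edgeR p under 0.05 in orange and the median of each list as a bar. The 9 factors hold no orange point (7.46% of all genes tested would be orange). Of 26 digestive enzymes, 10 are orange and all of these lie below 0 (3.56% of all genes), a count that depends on the scaling.

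Both genotypes were sampled in females and males, so the effect of sex was tested with genotype as a covariate. At an unadjusted p under 0.05, 1 of 9 genes differed (edgeR, background 5.29%), and 0 of 9 passed the adjusted threshold (background 0.0312%). The 1 gene was Rbpjl, with a log2 difference of males against females of 0.44 ± 0.17 (SE, unadjusted p = 0.0250, adjusted p = 0.890, and 0.560 in DESeq2). Its mean was 83.9 CPM in wild type males against 50.5 in wild type females, 57.5 in knockout males and 52.0 in knockout females (n = 2 each). The males therefore exceeded the females mainly in the wild type mice, and the interaction of sex and genotype for Rbpjl was -0.59 (unadjusted p = 0.0913, adjusted p = 0.849).

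The interaction reached an unadjusted p under 0.05 for 1 of 9 genes (edgeR, background 6.14%) and the adjusted threshold for 0 of 9 (background 0%). It was Nr5a2, with 3.94 CPM in knockout females (3.11 to 4.77), 2.13 in knockout males (1.72 to 2.55), 3.24 in wild type females (3.22 to 3.26) and 4.27 in wild type males (3.52 to 5.02). Both knockout males lay below both wild type males, and in females the wild type values lay within the knockout range. How often 2 against 2 mice separate in this way over all genes was not counted. The interaction was -1.27 ± 0.46 on the log2 scale (SE, unadjusted p = 0.0175, adjusted p = 0.794, and 0.510 in DESeq2), from 2 mice per sex and genotype.

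**Figure D5:**
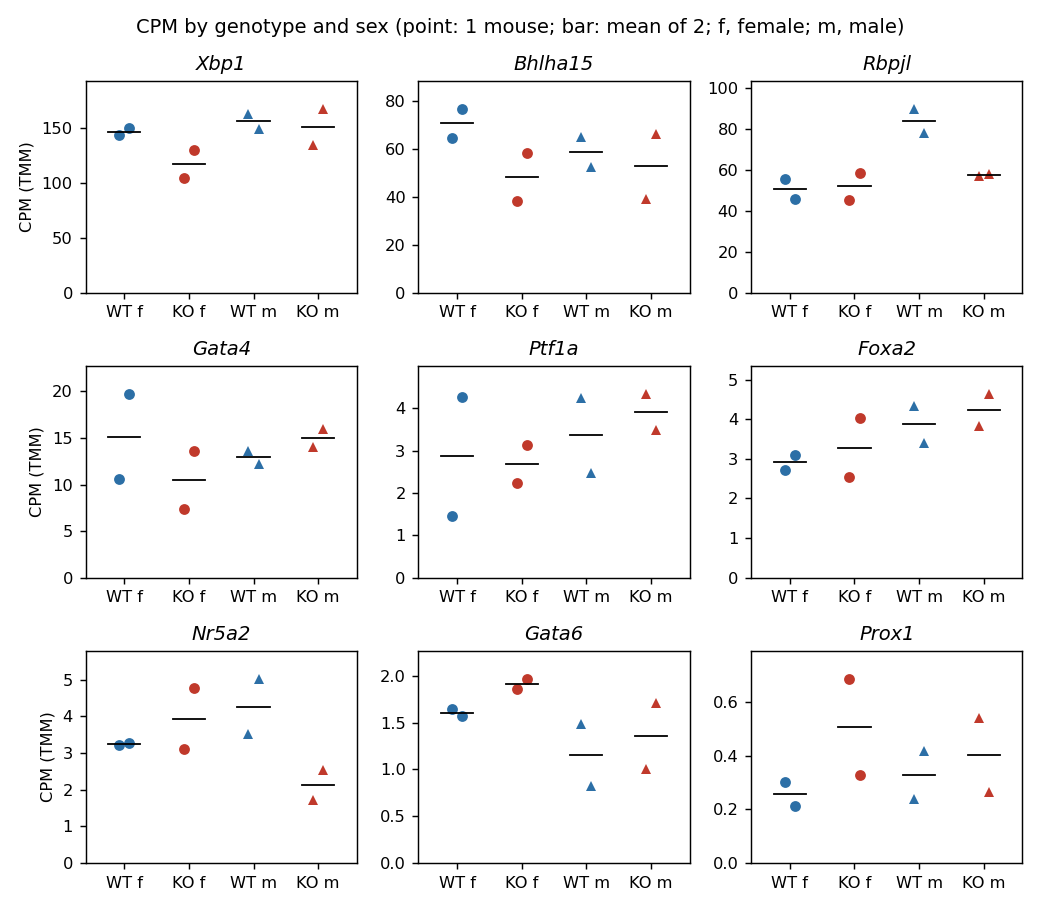
CPM of each of the 9 genes (vertical axis, from 0) in the 4 combinations of genotype and sex, each point 1 mouse and each bar the mean of 2. For Nr5a2 the knockout males lie at 1.72 and 2.55 and the wild type males at 3.52 and 5.02, and for Rbpjl the wild type males lie at 78.0 and 89.9, above all other mice.

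The profile of each of the 9 genes over the 8 libraries was set beside those of all genes tested. As a description, likeness was measured as the root mean square difference of centred log2 CPM over the 8 libraries, for which a lower value is closer. Xbp1 was closest to Rab3d (0.0614, beside a spread of 0.200 for Xbp1 itself), a GTPase of zymogen granules that is also on the list of Bhlha15 targets, then to P3h4 (0.0690) and Lzts3 (0.0728). Bhlha15 was closest to Sec31a (0.0990), a coat protein of vesicles leaving the endoplasmic reticulum, then Slc29a3 and Aco1. Ptf1a was closest to Gas8 (0.135), Efemp2 and Sox13, Rbpjl to Zfp266 (0.151), Lgalsl and Tigd5, and Nr5a2 to Gm4204 (0.168), Lgi2 and Tfb2m. Gata4 was closest to Slc11a2 (0.131), Ost4 and Sort1, Gata6 to Plcd1 (0.124), Cnot3 and Brpf1, Foxa2 to Gmds (0.107), Dctn5 and Pcsk6, and Prox1 to Ccdc137 (0.163), Ubn2 and Tnrc6a.

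No gene of the set was among the 3 closest of another. Counted from the closest of all genes tested, the nearest ranks were 130 (Xbp1 for Foxa2), 171 (Gata4 for Ptf1a), 222 (Xbp1 for Bhlha15) and 276 (Xbp1 for Rbpjl). The farthest was 9383 (Prox1 for Bhlha15). The nearest pair within the set was Xbp1 and Foxa2 (0.224), followed by Xbp1 and Bhlha15 (0.237) and Xbp1 and Rbpjl (0.268). All of these values exceed the spread of Xbp1 itself (0.200), the smallest of the set. They lie below the spread of the other gene of each pair, 0.293 for Foxa2, 0.342 for Bhlha15 and 0.321 for Rbpjl. Ptf1a and Rbpjl, the partners of the PTF1 complex, differed by 0.563, beside a spread of 0.519 for Ptf1a itself. Within the set Ptf1a was closest to Gata4 (0.370), which is below the spread of both genes (0.519 and 0.391). The measure depends on the spread of each gene as well as on its profile, so it does not show which factors vary together. All points share the 8 libraries and their scaling, and with 12820 genes to choose from some close profiles are found for any gene.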

How the data were processed

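RNA-seq data came from the pancreas of 4 Bach2KO and 4 Bach2WT mice, 1 library each, grouped by the genotype in the labels. Messenger RNA was selected with poly-T beads, and the submitters' processing notes name fastp, HISAT2 2.2.1, featureCounts 2.0.6 and build mm39 (GRCm39). The labels' protocol describes both a directional and a non-directional kit without saying which was used, and the strand setting of the counting is not given in the sources used here. The deposited table holds counts per gene and library without normalization, a normalized signal that the authors made from the counts with 1 size factor per library, and FPKM values by the authors, which further divide by the deposited gene length. The normalized signal was not used for any result. Columns with the authors' own genotype comparison (fold changes and p-values, raw and adjusted) and 2 group mean columns were not used.

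The comparisons used edgeR 4.0.16 under R 4.3.3 (TMM, filterByExpr, quasi-likelihood test, all 8 mice, no covariate) on the deposited counts, with Benjamini-Hochberg adjustment over 12820 genes and a threshold of 0.05. Sex was tested with genotype as covariate, and the interaction with both. CPM values use the TMM factors, and centred log2 CPM a prior count of 2. The SE is the size of the log2 fold change divided by the root of F. Single values per mouse were compared with exact permutation tests in SciPy 1.17.1. The procedure was tested on simulated data. Totals were 72299745 to 172029360 counts. Alternatives were RLE factors, DESeq2 1.42.0, no filter, at least 10 counts in every library, library sizes without digestive enzymes, sex as covariate, the replicate number as a block, a length correction (loess, span 0.3) and leaving out each mouse.

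The 9 genes, 7 gene lists and 11 marker lists were chosen with earlier results of these data known. Named genes were the 9 genes, in each list up to 6 genes with the smallest unadjusted p under 0.05, a fixed list (Rbpj, Tcf3, Tcf12, Foxa1, Pdx1, Hnf4a, Hspa5 and 1 gene that is not reported here), and for each of the 9 genes the 3 with the closest profile. Outside this rule, Zfpm1, Gata2, Matn4, Gata6os, Atf4, Atf5, Foxp4, Foxa3, Isl1, Reln, Mmrn1, Cel, Prss2 and the cell type markers were named after their values were seen. Promoter sequences were RefSeq's on GRCm38.p6, matched by symbol, and the TGGGAA motif was added after the sequences had been read.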

Additional observations from a re-analysis of the deposited data

Results flagged for a closer look

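Each of 28 groups of 4 mice (the CPM of the 9 genes and Rbpj and the 4 ratios, by genotype) was examined for a mouse far from the other 3 of its group, by the gap to the nearest of them relative to the group's range (Dixon's 95% limit). By chance about 1 in 20 groups would meet this, and 3 did. In Bach2KO mouse 1 Rbpjl was at 45.4 CPM, below the other knockout mice at 56.9 to 58.6 CPM. In Bach2WT mouse 4 Nr5a2 was at 5.02 CPM, above the other wild type mice at 3.22 to 3.52 CPM. The log2 ratio of Bhlha15 to Ptf1a was 1.96 in Bach2KO mouse 3, below the other knockout mice at 2.88 to 3.03. Bach2KO mouse 3 was also the library that stood apart on the first principal component.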

How the results depend on the processing

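In all 16 alternatives of the genotype comparison 0 of the 9 genes passed the adjusted threshold, and the direction of Rbpjl, Bhlha15, Nr5a2, Gata6, Foxa2 and Prox1 held. Without 1 mouse Ptf1a ranged from -0.16 to 0.27, below 0 without Bach2KO mouse 3, Bach2WT mouse 1 or Bach2WT mouse 4. Gata4 ranged from -0.27 to 0.070, above 0 without Bach2KO mouse 1 or Bach2WT mouse 2. With library sizes without digestive enzymes Gata4 turned to 0.070 and Xbp1 to 0.023. Unadjusted p-values under 0.05 arose for Rbpjl (0.0390 without Bach2WT mouse 2), Nr5a2 (0.0452 without Bach2KO mouse 2) and Bhlha15 (0.0283 without Bach2KO mouse 4, and with the length correction). The median of the 9 genes minus that of all genes was -0.19, and 0.04 without Bach2KO mouse 1 and 0.03 without Bach2WT mouse 2. For males against females, the values without 1 mouse ran from -0.28 to 0.048 for Bhlha15 (above 0 without Bach2KO mice 2 or 3 or Bach2WT mice 2 or 4), -0.46 to 0.022 for Nr5a2 (above 0 without Bach2KO mice 2 or 3), -0.086 to 0.43 for Gata4 (below 0 without Bach2KO mouse 1) and -0.26 to 0.32 for Prox1 (above 0 without Bach2KO mice 1 or 4 or Bach2WT mice 1 or 3, and 0.011 in DESeq2). The causes were not tested.

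Over all genes, 1 gene passed by genotype, against 75 in DESeq2, 73 with no filter, 0 with at least 10 counts in every library, 0 with library sizes without digestive enzymes, 0 with sex as covariate and 0 to 0 without 1 mouse. DESeq2 called 14 genes for the interaction (0 in edgeR) and 19 for sex (4 in edgeR, 2 to 9 without 1 mouse). With the replicate number as a block 0 genes passed, and 0 of the 9. Same-numbered mice of the genotypes correlated at 0.21, -0.03, -0.04 and -0.05 in their deviations from the group means, so the numbers were not taken as pairs. The order of levels was the same within each genotype, where 0 neighbour pairs passed since 4 libraries cannot give an exact p below 0.125. The 4 ratios kept their direction in every alternative. Depth limits Prox1 most, with 27 counts in its lowest libraries.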

Other observations

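The markers of other cells varied between mice beside the 9 genes, and their part in the values of those genes was not tested. At an unadjusted edgeR p under 0.05, 3.9% of all genes were higher and 3.56% lower in Bach2KO mice, the background for the counts that follow. Of the marker genes tested, islet markers had 1 higher of 11 (Gcg), duct markers 2 higher of 8 (Krt7 and Aqp1), blood endothelium 1 higher of 6 (Cdh5), lymphatic endothelium 1 higher of 6 (Ccl21a), macrophages 2 higher of 9 (Lyz2 and C1qb), plasma cells 1 lower of 5 (Igha, while the other 4 had log2 fold changes above 0 and the median was 0.40) and adipocytes 1 lower of 4 (Plin1). Fibroblast (9 tested), T cell (6 tested) and B cell (2 tested) markers had 0 at this threshold. For T and B cells the counts were near the floor, with 7 of 8 T cell and 4 of 5 B cell markers at 0 in a library. Of 12 acinar markers, which include Ptf1a, Rbpjl and Bhlha15, 3 were lower (Cpa1, Cel and Prss2). By edgeR 0 of the markers passed the adjusted threshold. At any p, 7007 of 12820 genes tested (54.7%) had a log2 fold change above 0, a share that depends on the scaling. The macrophage markers had 6 log2 fold changes above 0 and 3 below (Adgre1, Cd163 and C1qa). Of these, C1qa was at -0.64, beside 0.95 for C1qb. The numbers above and below 0 were 8 and 3 for islet, 5 and 3 for duct and 5 and 1 for blood endothelium markers. They were 6 and 0 for lymphatic endothelium and 1 and 3 for adipocyte markers. Fibroblast markers had 7 and 2, T cell markers 6 and 0, and B cell markers 0 and 2. Summed T cell markers were 0.809 to 2.84 CPM in Bach2KO and 0.187 to 2.15 CPM in Bach2WT mice. Summed duct markers were 97.2 to 156 CPM in Bach2KO and 120 to 161 CPM in Bach2WT mice, with 2 of 10 at 0 in a library. Summed plasma cell markers ranged from 7.49 to 150.3 CPM and from 5.14 to 70.6 CPM, highest in Bach2KO mouse 1 and Bach2WT mouse 1, with 5 of 9 at 0 in a library.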
